A study of Homo sapiens with 6 samples.

Results

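The weak reproducible GSX2 regions were 511 genomic intervals that held a FLAG-GSX2 ChIP-seq peak in each of 3 replicates but had a low average enrichment over background. They were chosen by measured values. Overlapping peak intervals on chromosomes 1 to 22 and X were merged, regions with a peak in all 3 replicates were kept, and the highest fold enrichment of each replicate was averaged. Regions with a mean under 7 were called weak. They made up 14.4% of the 3537 regions found in all 3 replicates (95% Wilson interval 13.3 to 15.6%) and 3.25% of all 15743 merged regions. The other 3026 shared regions, with a mean of 7 or more, served as the comparison.

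All libraries came from 1 group. H9 human embryonic stem cells carrying a doxycycline-inducible (TRE3G) transgene for wild-type GSX2 with a 2xFLAG tag were differentiated toward cells like those of the lateral ganglionic eminence. Expression was induced on day 10 by 12 hours in 100 ng/mL doxycycline, and cells were harvested on day 10.5 for ChIP with the M2 antibody to FLAG. The transgene product was therefore what was precipitated, not endogenous GSX2, and no ChIP from cells without the transgene was analysed here. The 3 input libraries were not analysed here. The peak lists name their replicates as biological and the labels do not say whether these were separate cultures. SDs over replicates may therefore measure technical spread in part. The p-values below come from counts of regions and measure no spread between replicates. No read counts were used, so the depth behind a weak peak is unknown.

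GSX2 is a homeodomain protein that patterns the lateral ganglionic eminence, an embryonic forebrain territory that gives rise to striatal projection neurons and some interneurons. It is known for holding the dorsal boundary of this territory against PAX6 and acts mainly as a repressor. Homeodomains of its family bind short AT-rich words built on a TAAT core. In ChIP-seq, fold enrichment is the ratio of signal at a peak's summit to the caller's estimate of background there, and the −log10 q value states how improbable that signal was after adjustment over the genome.

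Among the weak regions, 19 had their median summit inside the promoter window of a protein-coding gene, from 250 bases before to 50 bases after an annotated start. The windows of 4 of these are shown, one with none of the words searched, one with GC boxes and the pair with a homeodomain-type word. They were picked, with their words already known, from the 8 such regions whose fold enrichment varied least between replicates, and do not represent all 19: none of the 4 holds CCAAT or TAATTG or CACGTG. Sequences are RefSeq's for GRCh38.p14 on the gene's own strand, 5′ to 3′, and capitals mark matches on either strand to the words TAATTA or TAATTG or TAATGA (homeodomain-type words), GGGCGG (the GC box bound by SP family factors), CCAAT (bound by NF-Y) and CACGTG (the E-box of MYC and USF factors). The CHD9 window, chr16:53208201-53208500 (+ strand), and the MCUR1 window, chr6:13814508-13814807 (- strand), are followed by the RAI14 window, chr5:34684257-34684556 (+ strand), and the NFIB window, chr9:14316088-14316387 (- strand).
CHD9: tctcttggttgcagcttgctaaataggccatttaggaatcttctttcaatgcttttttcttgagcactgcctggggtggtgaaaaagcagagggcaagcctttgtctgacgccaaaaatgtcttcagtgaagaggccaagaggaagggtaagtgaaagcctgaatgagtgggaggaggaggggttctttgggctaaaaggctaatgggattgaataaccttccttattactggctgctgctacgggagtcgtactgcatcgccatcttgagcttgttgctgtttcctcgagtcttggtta
MCUR1: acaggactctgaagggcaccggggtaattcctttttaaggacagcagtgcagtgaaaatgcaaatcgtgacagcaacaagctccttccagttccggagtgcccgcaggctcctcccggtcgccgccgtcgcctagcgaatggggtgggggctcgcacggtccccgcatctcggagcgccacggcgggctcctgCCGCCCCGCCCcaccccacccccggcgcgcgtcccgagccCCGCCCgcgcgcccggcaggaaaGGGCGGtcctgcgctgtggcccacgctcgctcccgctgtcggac
RAI14: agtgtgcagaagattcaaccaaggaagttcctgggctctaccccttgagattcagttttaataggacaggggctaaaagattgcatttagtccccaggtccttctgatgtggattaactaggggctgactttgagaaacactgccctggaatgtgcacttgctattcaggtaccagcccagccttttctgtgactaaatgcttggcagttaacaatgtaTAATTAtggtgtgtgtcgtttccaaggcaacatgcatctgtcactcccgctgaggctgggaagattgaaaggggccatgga
NFIB: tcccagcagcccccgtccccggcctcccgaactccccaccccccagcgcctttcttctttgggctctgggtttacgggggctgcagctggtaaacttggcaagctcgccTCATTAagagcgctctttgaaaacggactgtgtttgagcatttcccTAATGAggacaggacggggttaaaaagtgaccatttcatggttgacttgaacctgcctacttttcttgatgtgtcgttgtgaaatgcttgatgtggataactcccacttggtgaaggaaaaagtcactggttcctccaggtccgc

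The CHD9 window, at a start of a chromatin remodeller, held none of the words searched. Other words with a TAAT core were not searched and are not marked. Such letters do occur, as taatgg in the CHD9 window and taattc in the MCUR1 window. The region had fold enrichments of 4.85, 4.80 and 4.65 in replicates 1, 2 and 3, the smallest relative spread of all weak regions in promoter windows, with its summit 55 bases before the start. MCUR1, which encodes a regulator of mitochondrial calcium uptake, had 4 GC boxes and no homeodomain-type word, and its summit lay 206 bases before the start, outside the stretch that holds the boxes. Its fold enrichments were 6.23, 6.01 and 6.69. At RAI14, an actin-associated protein, the single TAATTA began 31 bases before the start and the summit lay 84 bases before it, with fold enrichments of 4.72, 5.24 and 5.52. NFIB, a transcription factor of radial glia and gliogenesis, had 2 TAATGA matches, beginning 141 and 95 bases before the start used here. Its median summit fell between them at 133 bases. The replicate summits lay up to 101 bp apart at CHD9, 82 bp at MCUR1, 288 bp at RAI14 and 71 bp at NFIB. The place of a summit relative to a word is therefore approximate. The NFIB region had fold enrichments of 6.22, 7.45 and 7.15, so 2 of its 3 values were above 7. The other 4 of these 8 regions lay in the windows of CYP27C1, KLHL20, TUT7 and TMX2. None of those windows held a homeodomain-type word, while TMX2 held 3 CCAAT words and TUT7 held 3 GC boxes and 1 CCAAT.

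In the 20 promoter windows that held a weak summit, TAATTA occurred in 4 (20%), against 13 of the 68 windows that held another shared summit (19.1%), and it was present in 3.40% of all 22012 protein-coding windows. TAATGA occurred in 4 of the 20 windows (20%), in 26 of the 68 (38.2%) and in 6.53% of all windows. TAATTG was found in 1 of the 20 windows (5.00%), in 20 of the 68 (29.4%) and in 5.91% of all. The 95% Wilson intervals of the weak share ran between 8.07 and 41.6% for TAATTA and for TAATGA and between 0.89 and 23.6% for TAATTG, so these 20 windows fix the shares only loosely and no test was made. GC boxes stood in 45% of windows with a weak summit, 45.6% of those with another shared summit and 56.3% of all, and CCAAT in 40%, 44.1% and 34.7% of the same groups. CACGTG was in 5.00%, 8.82% and 8.32% of them. Median GC content was 52.2% in windows with a weak summit, 56.3% in those with another shared summit and 62.3% over all windows. The words can overlap, since CCAATTA holds both CCAAT and the reverse complement of TAATTG. A match is a description of the letters and not a mapped binding site.

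The weak regions had mean fold enrichments between 4.52 and the limit of 7 with a median of 6.27, and the other shared regions reached 44.3 with a median of 10.1. Median fold enrichment of the weak regions was 6.04, 6.12 and 6.22 in replicates 1, 2 and 3, against 10.3, 9.87 and 10.1 for the other shared regions. Median −log10 q was 7.29, 6.26 and 6.75 in the weak regions, and 18.6, 15.4 and 16.7 in the others. Fold enrichment chose the regions and −log10 q comes from the same peaks, so both are given as a description with no test. Only 189 of the 511 were under 7 in every replicate, while 272 were under 7 in 2 replicates and 50 in 1. Region by region the replicates did not rank the weak regions alike: Spearman's rho of fold enrichment between pairs of replicates was −0.12, −0.20 and −0.22 over the 511 weak regions, against 0.47 to 0.51 over the others. A limit on the mean forces high values in one replicate to go with low ones in another, so these coefficients too are set in part by the choice of regions. The median coefficient of variation over replicates was 18.6% in the weak regions and 19.7% in the others.

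**Figure D1:**
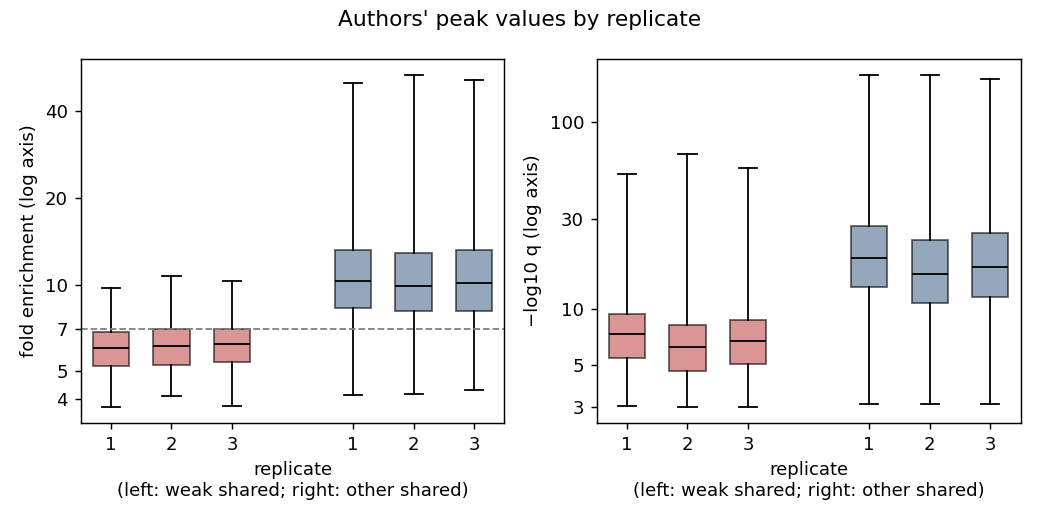
Fold enrichment (left panel) and −log10 q (right panel) of the authors' peaks by replicate, both on log axes, for the 511 weak shared regions (red) and the 3026 other shared regions (blue). Boxes span the quartiles with a line at the median, whiskers reach the lowest and highest region, and the dashed line marks a fold enrichment of 7; the weak medians of 6.04, 6.12 and 6.22 lie below the line in every replicate, while single weak regions pass it.

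Members just inside the threshold and regions just outside it had overlapping replicate values. The region at EBF3, a transcription factor of neuronal differentiation, had fold enrichments of 8.29, 6.23 and 6.48 and a mean of 6.999 ± 1.13 (SD, n = 3). Regions nearest to UBE3B, NR2F1, PKHD1 and PKM followed, with means between 6.991 and 6.996. Just above the threshold, the region 178 bp before CCNG2, an atypical cyclin, had 8.31, 5.70 and 6.997 and a mean of 7.003 ± 1.30, and regions at NR5A2, ECT2L, EPB41L4A and KCNN2 had means of 7.003 to 7.008. With SDs of 0.91 to 1.32 below the line and 0.44 to 2.04 above it, these 10 regions cannot be ranked against each other. At the other end, the lowest mean belonged to a region 106 kb from LOC124901483, with 4.59, 4.57 and 4.39. Regions nearest to CCNH, the cyclin of the CDK-activating kinase (mean 4.55 ± 0.34), CAMKMT (4.72 ± 0.78), ATF6, a sensor of unfolded protein in the endoplasmic reticulum (4.73 ± 0.47), and ARRDC3 (4.74 ± 1.20) came next.

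The lower strength was also present in a replicate that had not chosen the regions. When shared regions were selected for a mean under 7 in 2 replicates only, their median in the left-out replicate 1, 2 or 3 was 6.84, 6.87 or 7.003 (595, 581 and 596 regions), against 10.3, 9.85 and 10.1 for the remaining shared regions. In the left-out replicate 52.4%, 52.0% and 50% of the regions so selected were again under 7, against 14.4%, 16.1% and 14.8% of the rest. All of these regions had a peak in the left-out replicate, so values under the caller's limit are missing from these medians. Among regions found in a given pair of replicates with a mean under 7 in that pair, 62.4%, 43.0% and 53.8% also had a peak in the left-out replicate 1, 2 or 3, against 84.6%, 77.0% and 85.1% of those at 7 or more. A further 1637 regions found in exactly 2 replicates and 5961 found in 1 had a mean under 7 over the replicates that had a peak. That mean leaves out replicates below the caller's limit, so it is not the same measure as the mean over 3.

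The summits of weak regions were less tightly placed than those of the other shared regions, which is a description too, since strength and summit come from the same peaks. The largest distance between 2 replicates' summits had a median of 81 bp in the weak regions and 27 bp in the others. Summits fell within 50 bp in 30.7% of weak regions and in 80.2% of the others, within 100 bp in 59.9% and 92.8%, and within 200 bp in 82.4% and 96.6%. Most weak regions, 84.5%, had 1 summit in each replicate, as did 88.8% of the others. Peaks were shorter in the weak regions, with median widths of 300, 234 and 239 bp in replicates 1, 2 and 3, against 351.5, 263 and 281 bp. Merged regions differed less, with medians of 381 and 393.5 bp. The widest weak regions had summits far apart: the region 801 kb from POU3F3, a POU-domain factor of neural progenitors, spanned 1727 bp with summits up to 814 bp apart, and the region 575 kb from JAG1, a Notch ligand, spanned 1447 bp with summits up to 828 bp apart. Regions at ZFHX4, SALL1 and SOX2 followed with 1138, 971 and 953 bp.

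**Figure D2:**
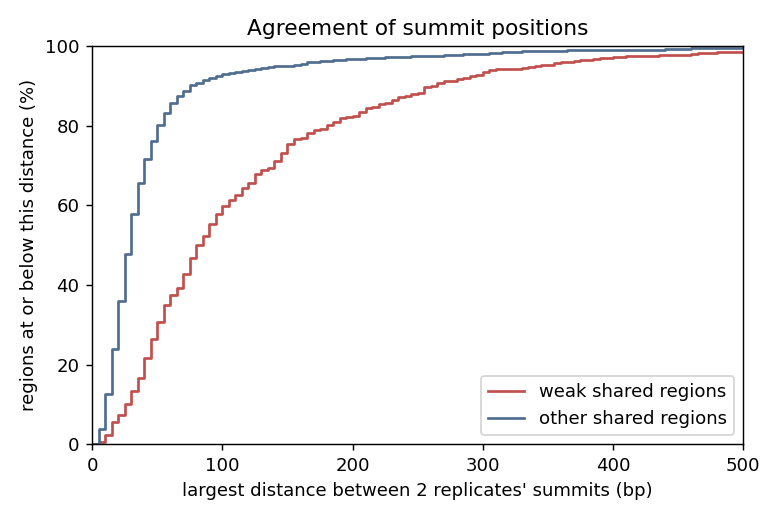
Cumulative share of regions (y axis, %) whose 3 replicate summits lie within a given distance (x axis, bp), for 511 weak shared regions (red) and 3026 other shared regions (blue). At 100 bp the curves stand at 59.9% for the weak regions and 92.8% for the others.

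One weak region departed from the rest in significance. The region upstream of TMEM216, a gene of the primary cilium's transition zone, at chr11:61391246-61391511 (266 bp, 1266 bp before the start) had fold enrichments of 5.32, 5.88 and 4.91 but −log10 q values of 52.6, 67.1 and 56.7, with all summits within 11 bp. The next highest mean −log10 q was 13.9, at a region 23.4 kb from LOC124903856, then 11.4 at PKM, a glycolytic enzyme, 11.2 at DCLK1, a microtubule-associated kinase, and 11.1 at a region 451 kb from SUCLG1. Only 7 of the 511 weak regions (1.37%) had a mean −log10 q of 10 or more, against 2757 of the 3026 others (91.1%). The TMEM216 region was therefore weak by ratio and far from weak by significance. Why ratio and significance differ there was not tested, and no filter for artefact-prone sites was applied here.

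Weak regions lay at gene ends more often than the other shared regions. Of the 511 weak regions, 92 (18%, Wilson interval 14.9 to 21.6%) had their summit no more than 1 kb from an end of some annotated gene, against 345 of the 3026 others (11.4%, 10.3 to 12.6%). The share over all shared regions was 12.4%. The odds ratio was 1.71 (95% interval 1.31 to 2.21; two-sided Fisher's exact test, p = 5.94e-05, adjusted p = 0.00019 over the 4 planned location comparisons by Benjamini-Hochberg). For ends of protein-coding genes the counts were 62 (12.1%) and 208 (6.87%), where the share over all shared regions was 7.63%, with an odds ratio of 1.87 (1.36 to 2.54; Fisher's exact test, p = 9.51e-05, adjusted p = 0.00019). Ends of lncRNA genes, which overlap other ends in part, were reached by 28 weak regions (5.48%) and 132 others (4.36%), and tRNA genes by 5 and 11. Regions are the units of this test, so the p-values describe these 3 libraries and not further cultures. The comparisons were planned with earlier results of these data known, and the relation to gene ends had been seen in them. These p-values are therefore not an independent test of that relation.

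Weak regions lay between genes less often than the others. Gene ends, the insides of genes and the space between genes divide the same regions, so this difference is not independent of the one at gene ends. Between genes lay 130 weak regions (25.4%) and 929 others (30.7%), an odds ratio of 0.77 (0.617 to 0.957; Fisher's exact test, p = 0.0163, adjusted p = 0.0217). This difference passed 0.05 in the main comparison but not in 7 of 10 other settings, where the odds ratio stayed between 0.77 and 0.91. Inside genes and away from their ends lay 289 weak regions (56.6%) and 1752 others (57.9%), with an odds ratio of 0.95 (0.78 to 1.15; Fisher's exact test, p = 0.594). Spans of protein-coding genes held 265 weak regions (51.9%, Wilson interval 47.5 to 56.2%) and 1549 others (51.2%, 49.4 to 53.0%). Among regions outside every protein-coding span, the median distance to the nearest one was 61.0 kb for 246 weak regions and 71.0 kb for 1477 others. Distances over 500 kb were found for 5.68% of weak regions and 5.35% of the others.

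**Figure D3:**
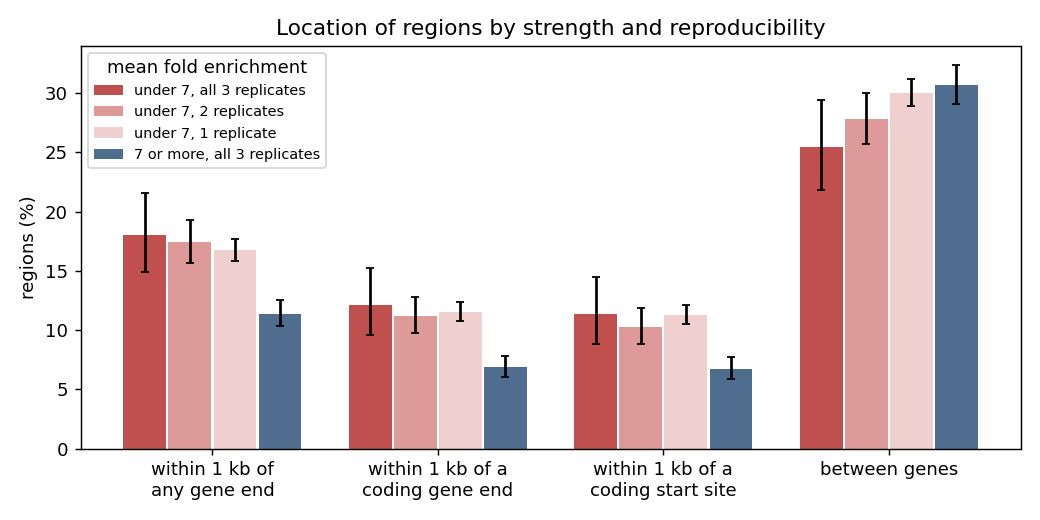
Share of regions (y axis, %, with 95% Wilson intervals) in 4 locations, for regions found in all 3, in exactly 2 or in exactly 1 replicate with a mean fold enrichment under 7 over the replicates with a peak (red shades) and for the 3026 shared regions of 7 or more (blue). At gene ends the 3 red bars stand between 16.8 and 18% and the blue bar at 11.4%.

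The gene-end share was then set against reproducibility and against strength. Regions with a mean under 7, over the replicates with a peak, that were found in exactly 2 replicates lay at a gene end in 17.4% of cases and those found in 1 replicate in 16.8%, next to the 18% of the weak regions found in all 3. Along the range of strength among shared regions, the share was 18.2% under a mean of 6, 17.9% at 6 to 7, 13.3% at 7 to 8, 11.5% at 8 to 10, 10.9% at 10 to 15 and 10.0% at 15 or more. Intervals of neighbouring classes overlapped. With each replicate's own value in place of the mean, regions under 7 were at a gene end in 15.9%, 15.6% and 15.1% of cases in replicates 1, 2 and 3, against 11.4%, 11.5% and 11.6% for the rest, a difference of 4.03 ± 0.51 percentage points (SD, n = 3) with the same sign in 3 of 3 replicates. The same shared regions, placed at their median summits, were used each time, and only the split at 7 changed. The 3 differences are therefore not independent, and their SD does not measure how well the location result repeats.

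**Figure D4:**
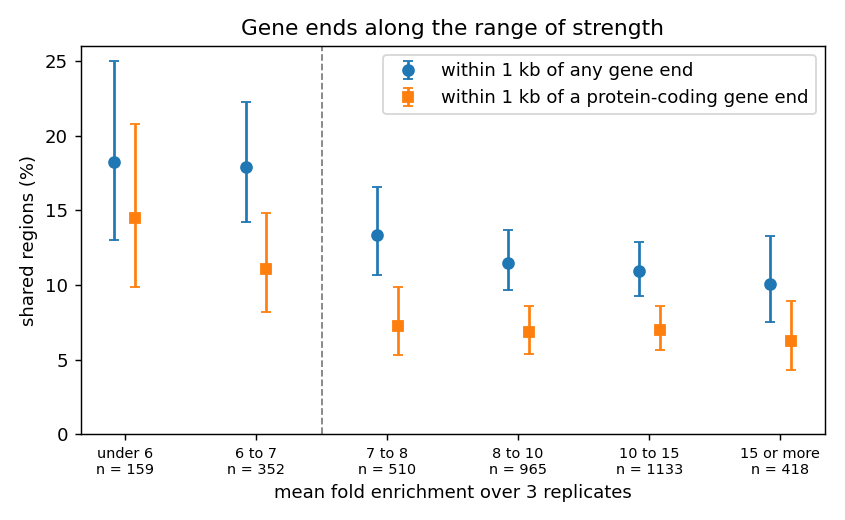
Share of shared regions within 1 kb of a gene end (y axis, %, with 95% Wilson intervals) in 6 classes of mean fold enrichment (x axis), for ends of any gene (circles) and of protein-coding genes (squares). The dashed line marks a mean of 7; any-gene shares are 18.2 and 17.9% left of it and between 13.3 and 10.0% right of it.

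Start sites were compared as a class of their own, since gene spans do not tell a gene's start from its far end and a gene can have several starts. Of 484 weak regions on chromosomes covered by the start-site table, 55 (11.4%) had their summit within 1 kb of a protein-coding start, against 194 of 2878 others (6.74%). The odds ratio was 1.77 (1.27 to 2.45; two-sided Fisher's exact test, p = 0.000676, adjusted p = 0.00113 over 5 comparisons), in a comparison added after the files were seen. The classes overlap in part: of the 62 weak regions at a coding gene end, 44 were also within 1 kb of a listed coding start, 17 were not, and 1 lay on a chromosome outside the table. Only 4 of the 484 weak regions (0.83%) lay at the far end of a coding gene in the start-site table and at no listed coding start. Among the others these were 32 of 2878 (1.11%), so the counts show no excess of weak regions at far ends alone. A further 11 weak regions, such as those at CHD9 and NFIB, were at a start inside a gene's span and away from its ends. Among the other shared regions, 141 of 208 at a coding gene end were also at a listed start, and 53 were at a start alone. The window from 250 bases upstream to the start was the fullest, with 19 weak summits (3.93%) and 54 others (1.88%), and the first 250 bases downstream held 6 (1.24%) and 10 (0.35%). Along strength, the share at protein-coding starts was 14.1% under 6, 10.1% at 6 to 7 and between 7.30 and 5.01% in the 4 classes above 7. The start-site difference missed 0.05 where summits had to agree within 100 bp (odds ratio 1.496, Fisher's exact test, p = 0.0674) and where all 3 values had to be under 7 (1.51, p = 0.106).

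**Figure D5:**
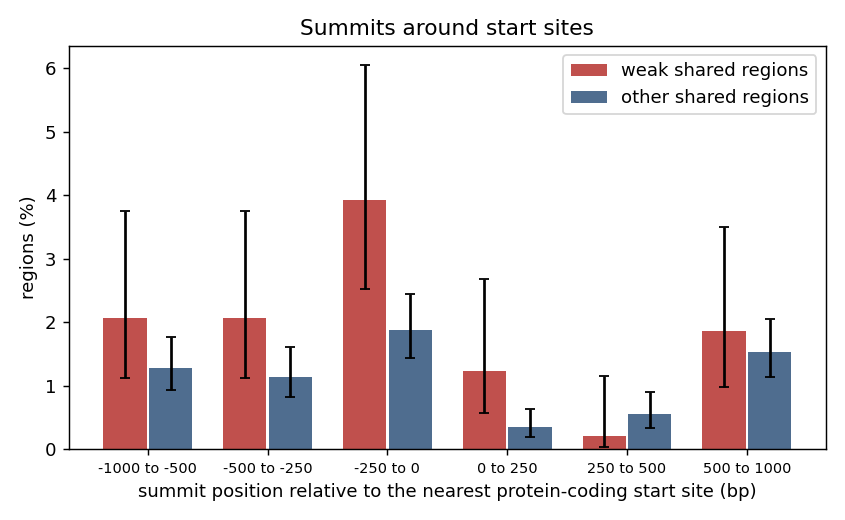
Share of weak (red, n = 484) and other (blue, n = 2878) shared regions with a summit in 6 windows around the nearest protein-coding start site (x axis, bp, negative is upstream; y axis, %, with 95% Wilson intervals). The highest bars are those just upstream of the start, 3.93% for weak regions and 1.88% for the others.

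Of the 10 least variable weak regions at coding gene ends, 7 were upstream of a start site. The region 97 bp before CYP27C1, a retinoid desaturase, had fold enrichments of 6.36, 5.99 and 6.16 (mean 6.17 ± 0.18, SD, n = 3). A region 79 bp before KLHL20, an adaptor of a ubiquitin ligase, had 5.54, 5.23 and 5.84 and lay inside the span of the neighbouring gene ANKRD45. The region 5 bp before TUT7, an RNA uridylyltransferase, had 5.11, 5.71 and 5.82, with summits up to 384 bp apart. At TMX2, a thioredoxin-related membrane protein, the values were 5.89, 5.18 and 6.11, and 390 bp before CXXC1, which binds unmethylated CpG, they were 6.92, 7.24 and 5.84. The remaining regions of this kind lay near ends of PIGP, ANKRD18B, ATF6 and IL13RA2. Of these 10 regions, which include the one at MCUR1 described above, only that at TUT7 had a nearest gene with a stronger shared region too. The closest stronger region was 73.9 kb away for the PIGP region, the shortest distance, and 1165 kb for the KLHL20 region, the longest. Over all weak regions the median of this distance was 233.4 kb, and over the other shared regions 238.2 kb. Other promoter windows with a weak summit belonged to NDUFB3, a subunit of respiratory complex I (6.33, 5.43 and 8.99), RPS26, a ribosomal protein (4.96, 5.12 and 8.09), TSG101, an ESCRT component (4.08, 5.58 and 8.32), and YJU2, a splicing factor (4.50, 10.8 and 5.62). In these 4 regions 1 replicate exceeded 7 by itself, replicate 2 at YJU2 and replicate 3 at the other three.

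The weak regions were nearest to 463 of 19974 protein-coding genes (2.32%), and the other shared regions to 2191 (11%). Of the 463 genes, 202 (43.6%) were also nearest to another shared region; these are 9.22% of the 2191. Most of the 463, 422, had 1 weak region and 41 had more. ADGRL2, an adhesion receptor at synapses, had 4 weak regions and 2 others. All 4 lay in its span, with means of 6.13 ± 1.05, 6.43 ± 1.35, 6.54 ± 0.57 and 6.57 ± 2.27. BCAS1, a gene of newly formed oligodendrocytes, had 3 weak regions and no stronger one, all outside its span, and the closest stronger region was 410 kb from the nearest of them. GPD2 and KCTD16 had 3 weak regions and 1 other each. OTX2, a homeodomain factor of the anterior neural plate, had 3 weak regions and 4 others, and the weak region 613 bp before one of its starts had 8.40, 7.06 and 4.83, so only replicate 3 was under 7. The median distance to the nearest (other) region with a mean of 7 or more was 233.4 kb for weak regions and 238.2 kb for the others, and 31.5% and 28.6% had one within 100 kb. None of PAX6, GLI3, NKX2-1, GSX1, GSX2 and the DLX genes DLX1, DLX2, DLX5 and DLX6 was the gene span nearest to a weak region. By start site, 1 weak region had one of them nearest: chr11:31763291-31763732, inside ELP4, lay 37.1 kb from a PAX6 start, with fold enrichments of 7.39, 6.55 and 3.82. Stronger shared regions were nearest to GLI3 (11), GSX2 (3), PAX6 (3), GSX1 (1) and NKX2-1 (1).

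Genes of forebrain development and signalling were often among those nearest to a weak region, and to the stronger regions too. Over 16 lists of such genes, 45 of 312 genes (14.4%) were nearest to a weak region and 138 (44.2%) to another, beside 2.32% and 11% of all protein-coding genes. Over 10 lists of general cell function the counts were 5 (2.03%) and 20 (8.13%) of 246 genes, and over 5 lists for other cell types 2 (2.08%) and 13 (13.5%) of 96. Among all shared regions nearest to the forebrain, signalling and neural genes, 58 of 340 were weak (17.1%, Wilson interval 13.4 to 21.4%), next to 14.4% of all shared regions. Genes with long spans and wide flanks collect more regions of both kinds, and this was not adjusted for; no test was made on the lists.

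Neural progenitor genes had the fullest list, with 6 of 20 genes nearest to a weak region (HES1, OTX2, POU3F3, SOX1, SOX11 and SOX2) and 12 nearest to another. In all, 11 of the 38 shared regions at this list were weak (28.9%), with 3 each at SOX2 and OTX2. Some lists with fewer regions had a higher weak share, such as neuronal differentiation with 3 of 9 (33.3%), so this share does not set the list apart. SOX2, which maintains neural progenitors, had 3 weak regions and 5 others, and the weak region 10566 bp before its start had 8.78, 7.70 and 4.06. SOX11, a factor of early neurons, had a region 319 kb away with 7.27, 8.09 and 4.86. In the list of ganglionic eminence progenitors, weak regions lay inside the TALE homeodomain genes PBX3 (6.36, 6.44 and 5.50), MEIS1 (5.73, 6.30 and 6.22) and MEIS2 (7.56, 6.33 and 4.06). PBX3 and MEIS1 had 2 stronger regions each and MEIS2 had none. In the list of the medial eminence the genes were SOX6 (8.27, 6.23 and 6.41), ERBB4, a neuregulin receptor of interneurons (8.17, 4.12 and 6.98), and LHX8, a factor of cholinergic neurons (5.76, 5.69 and 6.89). The LHX8 region lay inside the gene with no stronger region within 631 kb. Striatal projection neuron genes were reached at SIX3, 135 bp from its end (7.96, 6.67 and 5.84), and FOXP1 (4.12, 6.44 and 4.61), and the list of the caudal and dorsal eminence only at NR2F1 (2 weak regions and 3 others). A nearest gene can be far, as for the regions named for SOX6, NR2F1 and FOXP1, 344 kb, 1022 kb and 132 kb away. No gene of the 10 in the GABAergic programme was nearest to a weak region, and 2 were nearest to another shared region. At the background share of 2.32%, a list of 10 genes would most often hold none, so this zero does not set the list apart.

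Genes of the pallium, the dorsal neighbour of the ganglionic eminences, were reached at 5 of 24 genes (CUX1, EMX2, FEZF1, LHX2 and NEUROG1) by weak regions and at 11 by others. EMX2, a dorsal patterning factor, had 1 weak region (5.73, 5.81 and 7.84) and 5 others. This weak region lay 184 kb from EMX2 itself, and the closest stronger region lay 1.98 kb from the weak one. FEZF1, a forebrain zinc finger repressor, had a weak region 964 bp from its end (7.24, 4.89 and 6.37), and a stronger one lay 0.879 kb away. CUX1 had 8.83, 4.95 and 4.48, a region that only replicate 1 placed above 7.

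Components of signalling pathways were reached singly. In the Notch list 4 of 28 genes had a weak region nearest (HES1, JAG1, MAML3 and NOTCH2) and 10 had another. MAML3, a coactivator of the Notch transcription complex, had 6.38, 7.59 and 5.62, and the receptor NOTCH2 had 6.70, 4.59 and 6.29 and no stronger region. PTCH1, the Hedgehog receptor, was the only one of 14 genes of its list and had 2 weak regions and no stronger one. The PTCH1 region 141 bp before a start had 4.97, 6.52 and 8.02. In the Wnt list, CTNNB1, the pathway's transcriptional effector, had 6.87, 5.81 and 5.47 inside the gene, TCF7L2, its DNA-binding partner, had 6.13, 6.53 and 6.63, and the ligand WNT7A had 4.12, 7.03 and 6.74. Of 26 genes in the FGF, BMP and retinoid list, FGFR2 (5.95, 6.44 and 8.38) and BMPR1B (5.35, 7.08 and 8.09), both receptors, had a weak region, while 15 had another.

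Of 25 axon guidance genes, 6 had a weak region nearest (EFNA5, EPHA3, EPHB1, ROBO1, SEMA3A and SEMA5A) and 18 another. ROBO1, a Slit receptor, had 5.51, 6.87 and 7.31 in its span. Of 25 synaptic adhesion genes, 4 had a weak region nearest (ADGRL2, NCAM2, NLGN1 and TENM2) and 16 another, and the region inside NLGN1, a postsynaptic adhesion protein, had 7.92, 5.78 and 6.76. Some regions of these 2 lists lay far from the gene they are named for, such as those of EPHA3 (195 kb) and TENM2 (905 kb) and 1 of NCAM2 (546 kb). Neuronal differentiation genes were reached at ELAVL2, an RNA-binding protein of neurons, 53 bp from its end (5.95, 7.02 and 5.59), at MYT1L (5.51, 6.06 and 6.60) and at SNAP25, a protein of synaptic vesicle release (6.42, 5.60 and 8.46). All 3 had weak regions and no stronger one, while 4 other genes of the 21 in this list had stronger regions only. Glial genes were reached at NFIB and at SLC1A3, a glutamate transporter of radial glia (6.87, 4.60 and 6.63), 2 of 18, and ion channel genes at KCNQ3, 1 of 25.

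The lists of general cell function stood near the background, with the 2.03% given above beside 2.32% of all protein-coding genes. PSMC2, a proteasome ATPase, had a weak region 58 bp after its start (5.35, 7.32 and 8.09) and PSMD14, a proteasome deubiquitinase, had one inside its span (6.81, 6.27 and 6.30), 2 of 25 genes in their list, and 1 gene of that list had a stronger shared region. CDK6, a kinase of the G1 phase, had 6.23, 6.65 and 6.57, the narrowest range among the regions named from these lists. RPLP1 was the nearest coding gene to a region 279 kb away and NDUFB3 was named above. The lists of translation factors and tRNA synthetases, splicing factors, chaperones, replication-dependent histones, immediate early genes and chromatin regulators had no gene nearest to a weak region, and neither had those of HOX genes, mesoderm and endoderm, liver, blood and skeletal muscle. At the background share, lists of this size would hold about 1 such gene or none, so these zeros set no list apart. The pluripotency list had SOX2 and DPPA4 (6.12, 8.48 and 6.26), 2 of 16. Each absence is a count at the authors' peak threshold and does not show that the protein was not bound there.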

How the data were processed

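ChIP-seq peak lists of 3 replicates were analysed. The submitters' processing notes name MACS3, Bowtie2, Trim Galore, SAMtools and deepTools and the hg38 build, with no version or role. The sources used here do not give settings or say whether the input served as control. A list was deposited per replicate by the authors, with the fold enrichment of each peak as a linear ratio and its significance as −log10 q. The smallest deposited −log10 q was 3.00, so q-values went up to 0.001. Chromosomes 1 to 22 and X held 27327 peak lines, and 281 lines elsewhere were left out.

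Intervals overlapping by 1 bp or more were merged, and each replicate's peak of highest fold enrichment was kept. Regions were placed at the median of their 3 summits. Genes came from RefSeq tables of GRCh38.p14, the same build as hg38. Gene spans have no exons. Start sites came from the promoter table, which covers 15812 of 19974 protein-coding genes and none on chromosome 8, so 27 weak and 148 other regions there were not used in start-site comparisons. Location counts were compared with two-sided Fisher's exact tests (scipy 1.17.1, pandas 2.3.3, numpy 2.4.6, Python 3.11.15). Intervals are Wilson's and cover counting error only. The merging and the count of weak regions were tested on simulated peaks. The odds ratio function was checked only on a fixed pair of equal shares, and the placing of regions at genes was not tested. Alternatives covered the threshold, the summary of strength, summit agreement, the q-value, each replicate, the window and the gene set. The members, lists and tests were chosen with earlier results of these data known, and the relation of weak regions to gene ends had been seen in them. Named genes follow a rule: genes of the study's pathway, regions nearest to the threshold, of lowest mean, highest −log10 q or greatest width, genes with most members, up to 3 genes per list, and promoter-window and gene-end regions of lowest coefficient of variation. The last promoter regions named (NDUFB3, RPS26, TSG101 and YJU2) and genes listed by symbol beyond 3 per list were chosen after their values were seen.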

Additional observations from a re-analysis of the deposited data

How the results depend on the processing

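The odds ratio for gene ends stayed above 1 and past 0.05 in all 15 alternatives, between 1.44 and 2.18 (Fisher's exact test, p between 9.16e-06 and 0.0261). The 15 include protein-coding ends alone (odds ratio 1.87), which is also the planned comparison given above. They also include regions chosen as the same number lowest in mean −log10 q, an alternative added after the data were seen (odds ratio 1.52). Of these 511 regions, 459 were weak by fold enrichment too. The gene-end share of weak regions was 16.4 to 16.9% with a replicate left out, 22% with −log10 q of at least 5, 11.2% in a window of 500 bp, 24.5% in 2 kb and 12.1% for protein-coding ends. The number of weak regions depended most on the settings. It was 306 with summits within 100 bp, 189 with the highest value under 7, 159 under 6, 1021 under 8 and 209 with −log10 q of at least 5; with 1 replicate left out it was 951 to 1348, since a peak in 2 replicates then sufficed. In the same order the genes nearest to weak regions numbered 282, 184, 158, 889 and 199, and 823 to 1134 with a replicate left out. The share inside protein-coding spans was 50.5 to 55.0% throughout. The between-genes odds ratio missed 0.05 in 7 of 10 alternatives and the start-site one in 2 of 12; the cause was not tested. Depth is unknown, so a missing peak shows no absence. No paired analysis was possible because the ChIP replicates form 1 group, and the input libraries with the same replicate numbers carry no values in the peak lists used here.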
